A study of Mus musculus with 17 samples.

Results

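The transcriptional response to MSA2 plus IPI-549 was compared between bone marrow-derived dendritic cells (BMDC) and splenic B cells as a difference of effects. The effect of the combination over Control was taken within each cell type, and the B cell effect was subtracted from the BMDC effect, so a positive value means a larger rise, or a smaller fall, in BMDC. The comparison uses 11 of the 17 libraries of the series, chosen by their sample titles: 2 of BMDC with the combination, 3 of BMDC Control, 3 of B cells with the combination and 3 of B cell Control. The other 6 libraries, treated with MSA2 alone, entered the fit as separate groups that share its estimate of the spread and carry no weight in the contrast. MSA2 is a small-molecule agonist of STING, and IPI-549 (eganelisib) inhibits the lipid kinase PI3Kγ, encoded by Pik3cg. Per the series description the cells were taken from KPC mice, a genetic model of pancreatic cancer, while the genotype label of every library reads WT. The treatment label reads Control for every library, so the groups rest on the titles. No group with IPI-549 alone is labelled, neither a dose nor a time is given, and the labels do not say whether replicates came from separate mice, so the p-values measure the spread between these libraries, which may be technical. The 2 cell types were counted in separate tables, so cell type and library handling cannot be told apart in levels set side by side, while a shift common to all libraries of a cell type cancels in the difference of effects.

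STING is a membrane protein of the endoplasmic reticulum that is activated by the cyclic dinucleotide made when DNA is found in the cytosol. It recruits the kinase TBK1, which activates IRF3, the factor that turns on Ifnb1, and it also activates NF-kB, which turns on inflammatory cytokine genes. Secreted type I interferon then acts through its receptor on the interferon-stimulated genes. Dendritic cells that receive such signals raise costimulatory molecules and cytokines such as IL-12 and prime T cells. B cells also carry STING and can present antigen, and PI3Kγ is best known as the class I PI3K of myeloid cells downstream of G protein-coupled receptors.

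Total expected counts ranged from 34760025 to 43466361 in the 5 BMDC libraries and from 44355591 to 51433008 in the 6 B cell libraries. The B cell markers and the monocyte and macrophage markers separated the labelled cell types, and the dendritic cell markers did so far less. The 12 B cell markers summed to 8371 to 9479 CPM (counts scaled to library totals with TMM factors) in B cells, against 41.1 to 51.0 CPM in BMDC. The 14 monocyte and macrophage markers summed to 16330 to 17200 CPM in the BMDC combination and 17650 to 20130 CPM in BMDC Control, and the 13 dendritic cell markers to 3373 to 3482 CPM and 2802 to 3159 CPM in the same groups. The BMDC cultures thus carry strong macrophage-type transcripts beside the dendritic ones, and both sums were separated between combination and Control. In B cells the same 13 dendritic cell markers summed to 2119 to 2708 CPM in the combination and 1895 to 2126 CPM in Control. This list therefore says little about the identity of the BMDC. The B cell libraries treated with MSA2 alone stood apart, with B cell markers at 4209 to 4764 CPM, neutrophil markers at 1515 to 1626 CPM and T cell markers at 1098 to 1402 CPM. Without both MSA2 groups in the fit the difference held 748 genes, 329 of them negative. One library stood apart in a way that touches the results: BMDC Control replicate 2 held 499 counts of Ifnb1, against 0 and 2 counts in the other BMDC Control libraries. Results that rest on this library are given with and without it.

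The combination response was larger in BMDC for most genes that differed between the cell types. Of 17740 genes tested, 539 (3.04%) differed in their response (edgeR's quasi-likelihood test, Benjamini-Hochberg adjusted p under 0.05, in the fit of all 6 groups). The difference was positive for 379 genes (2.14%) and negative for 160 (0.902%). Within BMDC, 1354 genes (7.63%) passed the same test, 852 rising (4.8%) and 502 falling (2.83%). Within B cells, 294 genes (1.66%) passed, 160 rising (0.902%) and 134 falling (0.755%). Without BMDC Control replicate 2 the difference held 426 genes, 304 positive and 122 negative. Each BMDC combination library bears on these counts: 246 genes were called without replicate 1, of which 239 were among the 539, and 330 without replicate 2, of which 321 were.

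The positive differences were mostly genes that rose in BMDC and passed no test in B cells. This pattern held for 306 of the 379 genes (80.7%), while 34 (8.97%) rose in both cell types with a larger rise in BMDC. Another 19 (5.01%) fell in B cells without a call in BMDC, 15 had a call in neither cell type, and 5 rose in BMDC and fell in B cells. Of the 160 negative differences, 114 (71.2%) fell in BMDC without a call in B cells, 19 (11.9%) rose in B cells without a call in BMDC, and 15 had a call in neither. A call in one cell type and not in the other was not taken as a difference; membership in these classes requires the test of the difference itself.

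Most genes that rose in B cells also rose in BMDC. Of the genes that rose, 104 rose in both cell types, which is 12.2% of the BMDC list and 65.0% of the B cell list, and 66 of these 104 showed no difference past the threshold. Of the genes that fell, 27 fell in both, 5.38% of the BMDC list and 20.1% of the B cell list. Most of the 539 genes were measurable in both cell types, here meaning at least 1 CPM in at least 2 libraries of each: 330 of the positive and 145 of the negative differences. A further 31 and 7 were measurable in BMDC alone, and 10 and 6 in B cells alone, so most of the called genes were detected in both.

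**Figure D1:**
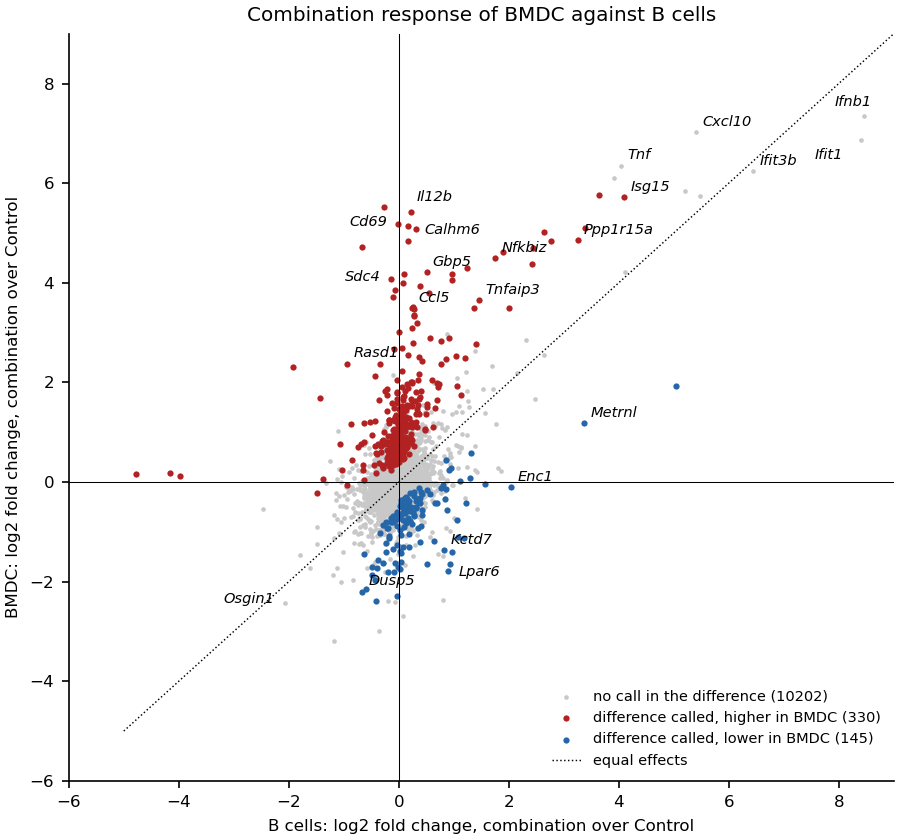
Log2 fold change of the combination over Control in BMDC (vertical axis) against that in B cells (horizontal axis) for the 10677 genes measurable in both cell types. Each point is a gene, red where the difference was called and higher in BMDC (330 genes), blue where it was called and lower in BMDC (145 genes), and the dotted line marks equal effects. Red points such as Il12b, Cd69 and Sdc4 stand above 0 on the BMDC axis and near 0 on the B cell axis, while Ifit3b lies near the line. The place of Ifnb1 on the B cell axis is a fitted value against 0 counts in B cell Control and is no measure of size.

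Il12b, which encodes the p40 subunit shared by IL-12 and IL-23, showed the largest difference among the key genes. It reached 151 and 134 CPM in the BMDC combination libraries, against 2.44, 5.06 and 2.24 CPM in BMDC Control, and stood at 2.54, 2.78 and 2.19 CPM in the B cell combination libraries, against 1.34, 2.08 and 3.11 CPM in B cell Control. Both treated BMDC libraries lay far above every other library, and the B cell groups overlapped. The log2 fold change was 5.43 ± 0.27 (SE) in BMDC and 0.21 ± 0.29 in B cells, and the difference of 5.21 ± 0.40 had an adjusted p of 2.38e-07.

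Cd69, an early activation antigen that holds leukocytes in tissue, differed in another way, because B cells carried it at a high level with or without treatment. Its level was 513 and 361 CPM in the BMDC combination, against 8.86, 16 and 11.1 CPM in BMDC Control. In the B cell combination it was 327, 276 and 425 CPM, against 304, 382 and 353 CPM in B cell Control. With the combination, BMDC held levels that overlapped those of B cells, whose own groups also overlapped, and the difference was 5.19 ± 0.32 (log2 ± SE, adjusted p = 1.95e-08).

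Sdc4, which encodes the heparan sulphate proteoglycan syndecan-4, had the smallest adjusted p of the named genes. It stood at 667 and 569 CPM in the BMDC combination, against 37.8, 41.2 and 30.5 CPM in BMDC Control. In the B cell combination it stood at 164, 175 and 161 CPM, against 172, 185 and 192 CPM in B cell Control. Both treated BMDC libraries stood at more than 10 times the level of any BMDC Control library, and the B cell ranges overlapped. The difference was 4.22 ± 0.18 (log2 ± SE, adjusted p = 2.07e-10).

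Calhm6, a member of the calcium homeostasis modulator family, and Apol7c, an apolipoprotein L gene, were also among the 10 largest positive differences. Calhm6 averaged 28.2 ± 0.816 CPM (SD, n = 2) in the BMDC combination and 0.824 ± 0.195 CPM (SD, n = 3) in BMDC Control, against 5.64 ± 1.77 and 4.52 ± 0.462 CPM in the B cell combination and Control (SD, n = 3 each). Apol7c averaged 53.2 ± 8.43 and 1.47 ± 0.398 CPM in the BMDC combination and Control, against 8.18 ± 1.92 and 7.26 ± 1.29 CPM in the B cell combination and Control. In both genes the untreated B cells stood above untreated BMDC and did not move past the threshold, and the differences were 4.75 ± 0.29 and 4.97 ± 0.32 (log2 ± SE). For Il12b, Cd69, Sdc4, Calhm6 and Apol7c the call was kept whichever of the 11 libraries was left out.

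**Figure D2:**
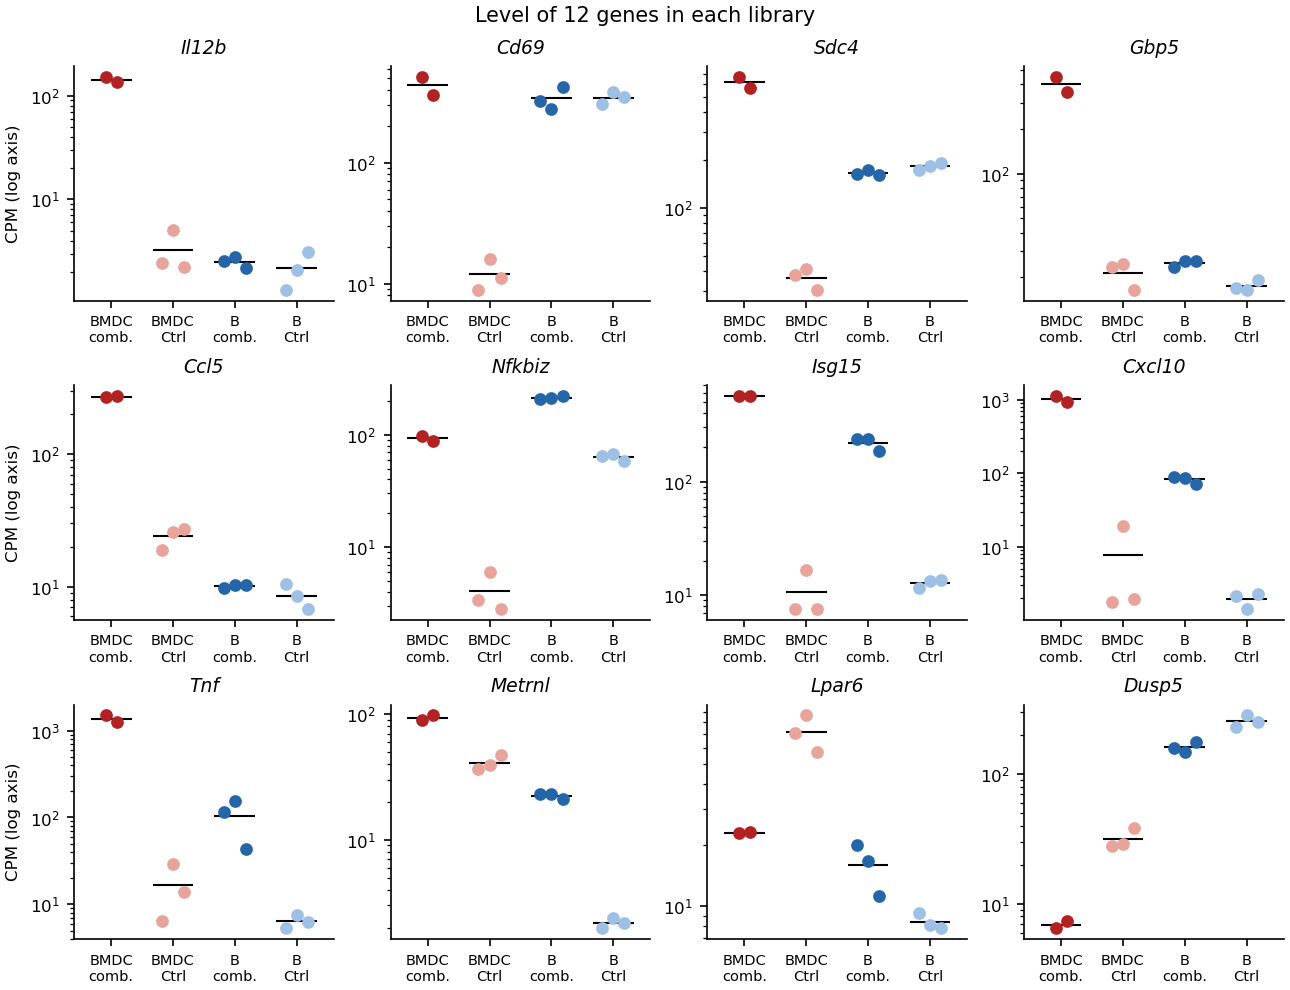
Level of 12 genes in each library in CPM on a log axis that differs between panels, with groups from left to right BMDC combination, BMDC Control, B cell combination and B cell Control. Points are libraries and horizontal lines are group means. Il12b reached 151 and 134 CPM in treated BMDC and stayed at 2.19 to 2.78 CPM in treated B cells, whereas Metrnl rose in both cell types and Cxcl10 stood at 19.5 CPM in BMDC Control replicate 2.

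The promoter sequences of genes with contrasting responses are given with their matches to fixed letter patterns of motifs of the STING-linked factors. The 250 bases before the RefSeq start (GRCm38.p6 table) were searched on both strands for an interferon-stimulated response element (ISRE, GAAANNGAAA), the kappaB motif bound by NF-kB, and the AP-1 motif (TGANTCA). Capitals mark the matches. Sdc4 and Calhm6 rose in BMDC without a call in B cells, Ifit1 and Cxcl10 rose in both, and Ifnb1 is the gene at the head of the pathway.
Sdc4 (chr2:164443189-164443438, minus strand): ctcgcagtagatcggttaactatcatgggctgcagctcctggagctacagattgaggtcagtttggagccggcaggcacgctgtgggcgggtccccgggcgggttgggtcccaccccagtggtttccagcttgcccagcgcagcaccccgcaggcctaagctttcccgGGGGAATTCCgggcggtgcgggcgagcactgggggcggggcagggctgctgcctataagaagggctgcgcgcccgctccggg
Calhm6 (chr10:34127973-34128222, minus strand): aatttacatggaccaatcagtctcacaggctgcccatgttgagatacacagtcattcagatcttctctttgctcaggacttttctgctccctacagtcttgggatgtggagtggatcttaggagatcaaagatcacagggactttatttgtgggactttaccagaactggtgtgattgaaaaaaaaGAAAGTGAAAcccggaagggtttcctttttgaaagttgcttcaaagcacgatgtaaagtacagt
Ifit1 (chr19:34640639-34640888, plus strand): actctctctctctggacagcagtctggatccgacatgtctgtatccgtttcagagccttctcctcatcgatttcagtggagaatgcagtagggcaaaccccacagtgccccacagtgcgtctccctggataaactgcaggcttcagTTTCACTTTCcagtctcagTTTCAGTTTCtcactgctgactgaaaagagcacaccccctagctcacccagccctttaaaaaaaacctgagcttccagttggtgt
Cxcl10 (chr5:92348890-92349139, minus strand): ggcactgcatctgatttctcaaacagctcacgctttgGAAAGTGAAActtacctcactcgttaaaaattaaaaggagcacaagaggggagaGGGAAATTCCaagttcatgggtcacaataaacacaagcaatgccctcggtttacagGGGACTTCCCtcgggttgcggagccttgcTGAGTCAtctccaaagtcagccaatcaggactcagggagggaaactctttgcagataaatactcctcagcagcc
Ifnb1 (chr4:88522795-88523044, minus strand): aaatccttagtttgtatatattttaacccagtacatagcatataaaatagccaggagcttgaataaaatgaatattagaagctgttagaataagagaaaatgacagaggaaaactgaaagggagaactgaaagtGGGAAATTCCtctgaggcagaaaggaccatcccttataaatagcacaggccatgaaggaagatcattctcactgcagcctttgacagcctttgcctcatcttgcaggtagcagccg
Counted back from the base before the start, Sdc4 held a kappaB match at -82 to -73 and Calhm6 an ISRE at -64 to -55. Ifit1 held a pair of ISRE matches on the opposite strand at -104 to -95 and -85 to -76. Cxcl10 held an ISRE at -213 to -204, kappaB matches at -159 to -150 and -103 to -94, and an AP-1 match at -74 to -68, and Ifnb1 a kappaB match at -116 to -107. The windows of Il12b, Metrnl and Lpar6 held no match to these patterns. A site that departs from the fixed letters is missed, so a window without a match may still hold a site. This applies to the ISRE in Ifnb1 and to the kappaB motif in Il12b.

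Across gene classes the share of promoters with an ISRE match was largest where both cell types responded. Among all 11687 matched genes tested, 3.53% held an ISRE, 5.51% a kappaB and 5.77% an AP-1 match. The ISRE share was 22.4% of the 85 matched promoters of genes that rose in both cell types, 8.66% of the 231 that rose in BMDC with a positive difference and no call in B cells, and 3.46% of all 27025 promoters in the table. A kappaB match was held by 11.8%, 9.96% and 4.46% of the same promoters. An AP-1 match was held by 11.8% of the genes that rose in both and 4.33% of those that rose in BMDC without a call in B cells, against 7.82% of all promoters. Of the 89 matched genes that fell in BMDC with a negative difference and no call in B cells, 2.25% held an ISRE and 5.62% a kappaB match. These shares describe letters in a fixed window and were not tested.

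Type I interferon genes rose in both cell types, and the share taken by Ifnb1 was different. Ifnb1 (chromosome 4, 88522025 to 88522774) is made as the first wave of type I interferon in many cells, and the Ifna genes encode the interferon alpha subtypes. Ifnb1 reached 26738 and 21980 counts in the BMDC combination, against 0, 499 and 2 counts in BMDC Control, and 57, 67 and 13 counts in the B cell combination, against 0 counts in all B cell Control libraries. On unscaled totals this is 671 and 630 CPM in treated BMDC and 1.21, 1.51 and 0.271 CPM in treated B cells. Treated BMDC thus stood far above treated B cells, and BMDC Control replicate 2 stood above every B cell library. Over the groups Ifnb1 had 48718 counts in treated BMDC, against 501 in BMDC Control and 2 without replicate 2, so the size of its rise in BMDC rests on that library. In B cells the 137 treated counts make it at least 46.7-fold higher than a floor of 3 counts over the Control group, while the fitted test gave no call (adjusted p = 0.389).

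Ifnb1 took 91.2% of the type I interferon counts (17 genes) in BMDC combination replicate 1 (Wilson 95% interval 90.9 to 91.6%) and 91.7% in replicate 2 (91.3 to 92.0%). In the B cell combination it took 1.33% (1.03 to 1.72%), 1.71% (1.35 to 2.16%) and 0.496% (0.29 to 0.847%) in replicates 1 to 3. The intervals of the cell types are far apart, and they cover counting error alone. These are shares of counts, not corrected for gene length, so they are compared between libraries and not between genes. BMDC Control replicate 2 held the treated pattern at a low level, with an Ifnb1 share of 89.1% (86.3 to 91.4%) of 560 type I interferon counts.

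The Ifna genes as a group stood in overlapping ranges in the 2 treated cell types. Their summed level on unscaled totals was 63.7 and 56.5 CPM in the BMDC combination and 89.4, 87.0 and 54.2 CPM in the B cell combination. The subtypes did not share 1 order. Ifna1 had 739 counts over the treated BMDC libraries and 5128 over the treated B cell libraries, and Ifna4 had 1079 and 3917. Ifna2 had 1356 and 417 counts in the same order, and Ifna9 and Ifna14, chosen after their values were seen, had 322 and 150 counts in treated BMDC and 0 in treated B cells. Ifna genes are near-identical copies whose reads RSEM divides among them, so the split between subtypes is uncertain. None of the 14 tested genes of the type I and III interferon list passed the test of the difference. The median difference of the list was -0.587 (log2), and 3.65 without BMDC Control replicate 2. The fitted difference of Ifnb1 was -1.11 (adjusted p = 0.988), and 5.88 without that library, with no call in either fit. That of Ifna4 was -4.93, and 0.851 without it. These signs thus change with 1 library, and the fitted values are no measure of size. Within the cell types 13 rose in BMDC and 6 in B cells, beside 4.8% and 0.902% of all genes. Genes with 0 or few Control counts passed the filter through treated libraries, so these counts of rises are a description. Fitted fold changes of genes with 0 counts in a Control group give no bound. Ifna1 passed, with a negative difference, when BMDC Control replicate 3 was left out (adjusted p = 0.0481), in DESeq2 (5.65e-05) and with no filter on low counts (0.000116), and Ifna4 passed in DESeq2 (0.0232) and with no filter (0.000588).

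**Figure D3:**
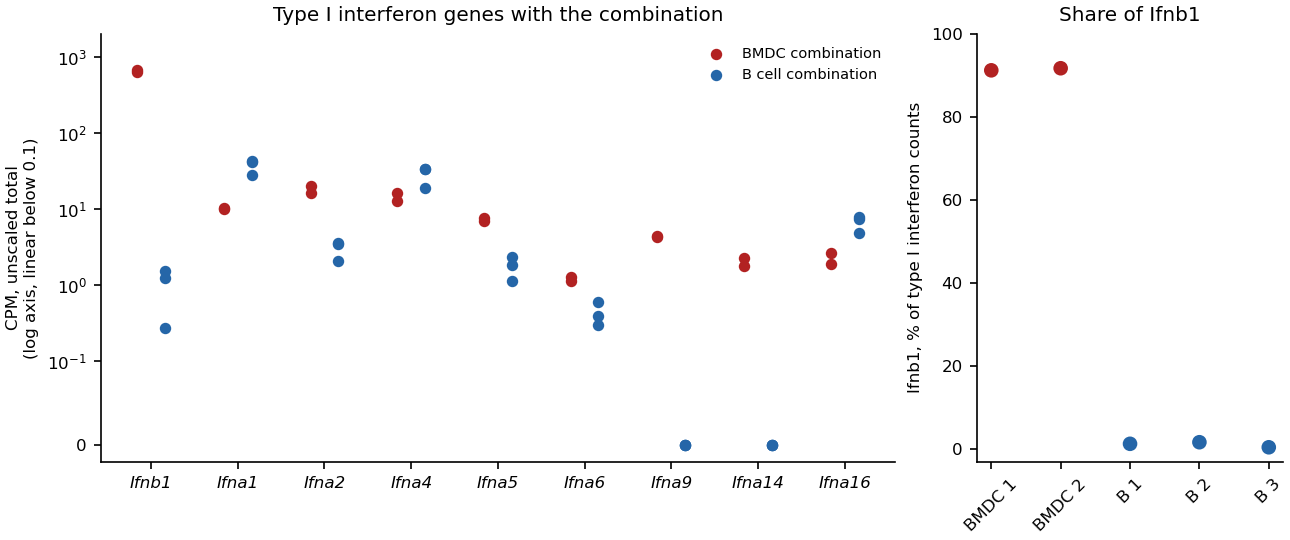
Left, level of Ifnb1 and 8 Ifna genes in the combination libraries (CPM on unscaled totals, log axis that is linear below 0.1), with BMDC in red and B cells in blue; right, the share of Ifnb1 among type I interferon counts in each of these libraries. Each point is a library. Ifnb1 stands at 671 and 630 CPM in BMDC and at most 1.51 CPM in B cells, while Ifna1, Ifna4 and Ifna16 stand higher in B cells.

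Interferon-stimulated genes rose in both cell types and more of them, and further, in BMDC. Of 36 tested, 25 rose and 1 (Eif2ak2) fell in BMDC, 12 rose in B cells, and 20 had a positive difference and none a negative one. Their median log2 fold change was 1.34 in BMDC and 0.20 in B cells, beside medians of 0 over all genes in each cell type. Without BMDC Control replicate 2, 17 had a positive difference and none a negative one. Among all genes tested, 4.8% rose and 2.83% fell in BMDC and 0.902% rose in B cells, while 2.14% had a positive difference.

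Gbp5, a guanylate-binding protein of inflammasome and anti-pathogen defence, led the list. It stood at 448 and 355 CPM in the BMDC combination, against 23.5, 24.5 and 16.5 CPM in BMDC Control. In the B cell combination it stood at 23.4, 25.6 and 25.9 CPM, against 16.9, 16.6 and 19.3 CPM in B cell Control. Neither pair of groups overlapped, as was the case for 39.5% of all genes in BMDC and 17.3% in B cells, and the rise in B cells missed the threshold (log2 0.51 ± 0.14 SE, adjusted p = 0.0984). The difference was 3.72 ± 0.21 (adjusted p = 1.06e-08) and was called whichever library was left out.

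Mx2, an antiviral GTPase, and Ifih1, the RNA sensor MDA5, rose in both cell types with a larger rise in BMDC. GENCODE classes mouse Mx2 as a polymorphic pseudogene, so its RNA need not make a working protein. Mx2 stood at 68.5 and 44.7 CPM in the BMDC combination, against 2.61, 2.31 and 1.62 CPM in BMDC Control, and at 12.6, 16.7 and 8.96 CPM in the B cell combination, against 2.24, 2.38 and 2.39 CPM in B cell Control. Its difference was 2.25 ± 0.38 (log2 ± SE, adjusted p = 0.00168), and that of Ifih1 was 1.97 ± 0.29 (adjusted p = 0.000384). Isg15, a ubiquitin-like protein, reached 564 and 565 CPM in the BMDC combination, against 7.57, 16.8 and 7.54 CPM in BMDC Control, and 237, 239 and 185 CPM in the B cell combination, against 11.7, 13.3 and 13.5 CPM in B cell Control. The groups of each cell type were far apart. Its difference of 1.61 ± 0.35 (adjusted p = 0.0156) rose to 2.12 without BMDC Control replicate 2 (adjusted p = 0.000138) and lost its call without BMDC Control replicate 1 (1.41, adjusted p = 0.0514), BMDC combination replicate 1 (1.60, 0.0763) or BMDC combination replicate 2 (1.62, 0.0616).

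The strongest responders of the list were shared by the cell types, with no difference past the threshold. Ifit1, an RNA-binding inhibitor of viral translation, had 2266 and 1701 CPM in the BMDC combination, against 4.55, 42.2 and 3.53 CPM in BMDC Control, and 581, 614 and 458 CPM in the B cell combination, against 1.86, 1.26 and 1.77 CPM in B cell Control. Its difference was -1.53 (95% interval -3.44 to 0.38, adjusted p = 0.492), and 0.54 without BMDC Control replicate 2 (adjusted p = 0.548), so its sign rests on that library. Its paralogue Ifit3b had a difference of -0.21 (-1.38 to 0.96, adjusted p = 0.949), which became 0.45 without the same library. These intervals are wide and leave room for differences in either direction.

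**Figure D4:**
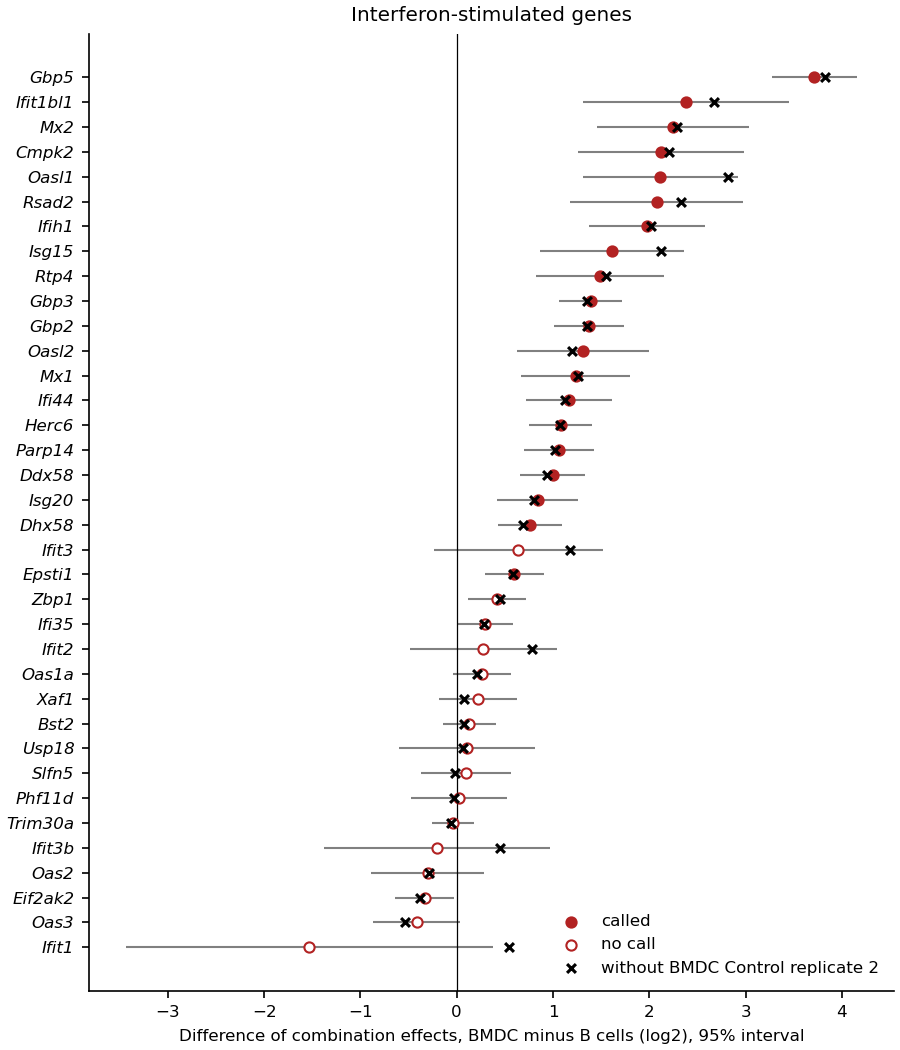
Difference of combination effects (log2, BMDC minus B cells) with its 95% interval for the 36 interferon-stimulated genes, filled where called and open where not, with crosses for the value without BMDC Control replicate 2. The 20 called genes are positive, led by Gbp5 at 3.72, and the cross of Ifit1 lies on the other side of 0 from its point.

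Ccl5, Ccl4, Cxcl1, Cxcl9 and Cxcl11 were the chemokine genes with a larger response in BMDC. Of 19 tested, 13 rose in BMDC and 2 (Cxcl10 and Ccl4) in B cells, beside 4.8% and 0.902% of all genes. A positive difference was held by 5, beside 2.14% of all genes, while none had a negative one and 14 had no call. The median log2 fold change was 2.53 in BMDC and 0.17 in B cells. Ccl5, a chemokine that draws T cells and monocytes, stood at 269 and 274 CPM in the BMDC combination, against 18.9, 25.8 and 27.3 CPM in BMDC Control, and at 9.73, 10.4 and 10.4 CPM in the B cell combination, against 10.4, 8.48 and 6.78 CPM in B cell Control. The BMDC groups were separated and the B cell groups met at 10.4 CPM. Its difference was 3.25 ± 0.24 (log2 ± SE, adjusted p = 1.86e-07) and kept its call in every left-out fit.

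Among the ligands of CXCR3, which draw effector T cells, the outcome depended on the gene. Cxcl10 reached 1124 and 946 CPM in the BMDC combination, against 1.79, 19.5 and 1.94 CPM in BMDC Control, and 89.1, 86.6 and 72.4 CPM in the B cell combination, against 2.16, 1.43 and 2.28 CPM in B cell Control. It rose in both cell types, by 7.02 ± 0.64 (log2 ± SE) in BMDC and 5.40 ± 0.62 in B cells. The difference of 1.62 ± 0.82 missed the threshold (adjusted p = 0.394), and was 3.71 with an adjusted p of 7.62e-07 without BMDC Control replicate 2. It also passed with no filter (adjusted p = 0.00997). Cxcl9 and Cxcl11 were called in every left-out fit, at 4.66 ± 0.84 and 5.36 ± 0.87, from low levels. Cxcl11 had 249 counts over the BMDC combination, against 6 over BMDC Control, and 10 over the B cell combination, against 7 over B cell Control. It thus passed the filter through treated BMDC, and its difference is a description. GENCODE classes Cxcl11 too as a polymorphic pseudogene. Cxcl9 averaged 1.63 and 0.0587 CPM in the BMDC combination and Control, against 3.30 and 2.93 CPM in the B cell combination and Control. The Cxcl9 difference was 9.02 in the left-out fit with the highest value, so its size is poorly fixed. Cxcl1, a ligand of CXCR2, had 302 counts over the BMDC combination and 41 over BMDC Control. With 25 and 24 counts over the B cell combination and Control it was not measurable in B cells. Cxcl1 lost its call (3.41, adjusted p = 0.0454) in 8 of the 11 left-out fits, with an adjusted p of up to 0.305 (without B cell Control replicate 3).

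Of the inflammatory cytokine genes, Il12b, Il15, Il1a and Il1b had a positive difference. Il1a changed by 2.30 in BMDC and -1.92 in B cells (log2), and Il1b by 0.77 and -1.07. The falls in B cells are thus part of the Il1a and Il1b differences. Of 22 tested, 10 rose and 1 fell in BMDC, 3 rose and 2 fell in B cells, and 4 had a positive and 1 (Osm, -1.59) a negative difference. The other 17 had no difference past the threshold, and without BMDC Control replicate 2 the positive differences numbered 6. Among all genes tested, 4.8% rose and 2.83% fell in BMDC, and 0.902% rose and 0.755% fell in B cells. The difference was positive for 2.14% of all genes and negative for 0.902%. Il15, which sustains NK and memory T cells, averaged 10.5 and 3.03 CPM in the BMDC combination and Control, against 1.02 and 1.04 CPM in the B cell combination and Control, a difference of 1.81 ± 0.28 (log2 ± SE, adjusted p = 0.000907).

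Tnf and Il6, inflammatory cytokines induced by NF-kB, rose in both cell types. Tnf stood at 1503 and 1241 CPM in the BMDC combination, against 6.46, 29.5 and 14.0 CPM in BMDC Control, and at 116, 155 and 43.6 CPM in the B cell combination, against 5.30, 7.55 and 6.22 CPM in B cell Control. The groups were separated in each cell type, and BMDC Control replicate 2 was the highest untreated library. The difference of 2.31 ± 0.62 missed the threshold (adjusted p = 0.0543). It passed without BMDC Control replicate 2 (3.02, adjusted p = 0.00635) and without B cell combination replicate 2 (2.71, adjusted p = 0.0262). It also passed in DESeq2 (adjusted p = 0.0274) and with no filter (9.22e-08). Il6 averaged 75.9 and 1.05 CPM in the BMDC combination and Control, against 2.30 and 0.152 CPM in the B cell combination and Control, and its difference of 2.19 ± 0.84 (adjusted p = 0.221) was 3.24 without BMDC Control replicate 2 (adjusted p = 0.00738) and passed in DESeq2 (0.0361) and with no filter (0.00468). Il10, the anti-inflammatory cytokine of regulatory B cells, showed no call. It stood at 0.104 and 0.0297 CPM in treated BMDC and 0 in BMDC Control, and at 4.19, 4.11 and 0.898 CPM in treated B cells, against 2.6, 2.29 and 3 CPM in B cell Control, with B cell combination replicate 3 apart from the other treated libraries.

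NF-kB subunit and target genes rose in BMDC, and fewer of them did so in B cells. Of 22 tested, 15 rose in BMDC and 3 (Nfkbia, Nfkbiz and Tnfaip3) in B cells, beside 4.8% and 0.902% of all genes. A positive difference was held by 9, beside 2.14% of all genes, and a negative one by none. Without BMDC Control replicate 2 the positive differences numbered 6. The median log2 fold change was 0.54 in BMDC and 0.03 in B cells.

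Nfkbiz, which encodes a nuclear co-regulator of a subset of NF-kB targets including Il12b and Il6, rose in both cell types to different degrees. It stood at 97.8 and 87.9 CPM in the BMDC combination, against 3.38, 6.01 and 2.81 CPM in BMDC Control. In the B cell combination it stood at 209, 210.3 and 220.4 CPM, against 64.4, 67.9 and 57.8 CPM in B cell Control. B cells thus held more Nfkbiz than BMDC before and after treatment, while the rise was larger in BMDC, with a difference of 2.74 ± 0.23 (log2 ± SE, adjusted p = 9.36e-07).

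Tnfaip3, the ubiquitin-editing brake A20, followed the same pattern. It averaged 515 ± 35.9 CPM (SD, n = 2) in the BMDC combination and 40.9 ± 9.67 CPM (SD, n = 3) in BMDC Control, against 887 ± 69.5 and 322 ± 17.4 CPM in the B cell combination and Control, a difference of 2.19 ± 0.19 (log2 ± SE, adjusted p = 9.91e-07). Rel, the c-Rel subunit, rose by 1.71 ± 0.13 in BMDC and stayed at 1655 to 1788 CPM in every B cell library, with a change of 0.07 ± 0.11. Cflar, which encodes the caspase-8 inhibitor c-FLIP, rose by 2.01 ± 0.09 in BMDC and changed by 0.22 ± 0.08 in B cells without a call. The differences of Rel (1.64) and Cflar (1.79) were called in every left-out fit, as were those of Nfkbiz and Tnfaip3.

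Costimulation and maturation genes rose in BMDC, with 1 call in B cells. Of 20 tested, 14 rose and 1 fell in BMDC and 1 (Marcksl1) rose in B cells, and 11 had a positive and 1 a negative difference. Without BMDC Control replicate 2 these were 7 and 1. Among all genes tested, 4.8% rose and 2.83% fell in BMDC and 0.902% rose in B cells. The difference was positive for 2.14% of all genes and negative for 0.902%. The median log2 fold change was 1.37 in BMDC and 0.03 in B cells. Tnfsf9, the ligand of 4-1BB, stood at 87.5 and 71.8 CPM in the BMDC combination, against 8.01, 9.13 and 10.9 CPM in BMDC Control, and at 0.402, 0.622 and 0.307 CPM in the B cell combination, against 0.497, 0.821 and 1.01 CPM in B cell Control. Its B cell level was below 1 CPM in 5 of 6 libraries, and the difference was 3.88 ± 0.36 (log2 ± SE, adjusted p = 2.3e-06).

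Cd40, the receptor through which T cells license antigen-presenting cells, had 35.1 and 36.8 CPM in the BMDC combination, against 9.63, 10.3 and 9.15 CPM in BMDC Control, and 68.9, 70.6 and 91.2 CPM in the B cell combination, against 69.6, 68.6 and 68.1 CPM in B cell Control. Treated BMDC stayed below B cells, and the B cell groups overlapped. The difference was 1.73 ± 0.18 (adjusted p = 7.09e-06). Cd86, a ligand of CD28, had a difference of 0.85 ± 0.21 that was past the threshold (adjusted p = 0.0367) in the full data and in 2 of the 11 left-out fits, with an adjusted p of 0.0786 without BMDC Control replicate 2 and up to 0.225 (without BMDC combination replicate 1). Icosl, the ligand of ICOS, was the gene that fell, with 13.1 and 35.5 CPM in the BMDC combination and Control, against 116 and 113 CPM in the B cell combination and Control, and a difference of -1.47 (adjusted p = 4.51e-05).

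Of the 13 dendritic cell markers, 4 (Ccr7, Fscn1, Xcr1 and Flt3) had a positive difference, none a negative one and 9 no call. Over all genes 2.14% had a positive difference. Ccr7, which guides mature dendritic cells to lymph nodes, averaged 225 and 72.4 CPM in the BMDC combination and Control. Its B cell levels were higher, at 1491 and 1217 CPM in the combination and Control. The difference was 1.34 ± 0.23 (adjusted p = 0.002) for Ccr7 and 1.77 ± 0.29 (adjusted p = 0.0013) for the actin-bundling gene Fscn1. Both were called in every left-out fit. Xcr1, the chemokine receptor of cross-presenting dendritic cells, averaged 2.92 and 0.179 CPM in the BMDC combination and Control, against 4.43 and 4.18 CPM in the B cell combination and Control, a difference of 3.91 ± 0.33 (adjusted p = 9.91e-07). Flt3, the receptor of a dendritic cell growth factor, lost its call (1.83 ± 0.38, adjusted p = 0.0113) without BMDC combination replicate 1 (1.57, adjusted p = 0.16). Flt3 averaged 0.977 and 0.283 CPM in the BMDC combination and Control, below the measurable level in BMDC. In the B cell combination and Control it averaged 17.8 and 18.2 CPM. In these bulk libraries a change in the number of dendritic cells and a change in RNA per cell cannot be told apart.

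Transcription factors of the interferon family moved in opposite directions in BMDC, with no call in B cells. Irf8 had 225 and 235 CPM in the BMDC combination, against 116, 112 and 122 CPM in BMDC Control, and 457, 453 and 516 CPM in the B cell combination, against 418, 459.5 and 503 CPM in B cell Control. Irf4 had 119 and 115 CPM in the BMDC combination, against 240.2, 191 and 251 CPM in BMDC Control, and 915, 909 and 783 CPM in the B cell combination, against 745, 853 and 961 CPM in B cell Control. Irf8 rose and Irf4 fell in BMDC with no overlap, while the B cell groups overlapped for both. The differences were 0.94 ± 0.17 for Irf8 (adjusted p = 0.00384) and -0.98 ± 0.20 for Irf4 (adjusted p = 0.00773), and that of Irf4 lost its call without BMDC combination replicate 2 (-0.95, adjusted p = 0.0591). Stat4, the factor downstream of IL-12, had a difference of 1.45 ± 0.22 (adjusted p = 0.000724). Of the 24 genes of the IRF, JAK-STAT and SOCS list Irf8, Irf4 and Stat4 were the 3 called, beside 3.04% of all genes.

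Antigen presentation, checkpoint and sensor genes showed smaller differences. Of 22 MHC class I presentation genes 3 had a positive difference, H2-Q7 the largest at 1.03 ± 0.17 (log2 ± SE, adjusted p = 0.00131). Of 14 class II genes 2 did, H2-Eb2 the largest at 1.15 ± 0.12 (adjusted p = 8.35e-06), and 1 did without BMDC Control replicate 2. Over all genes 2.14% had a positive difference, a share at which lists of this size would hold few such genes or none. H2-Q genes share sequence, so their split is uncertain. Cd274, which encodes PD-L1, rose in both cell types, with 567 and 520.2 CPM in the BMDC combination, against 253, 284 and 254 CPM in BMDC Control, and 214, 209 and 217 CPM in the B cell combination, against 139.5, 146 and 172 CPM in B cell Control. Its groups did not overlap in either cell type, and its difference of 0.56 ± 0.15 (adjusted p = 0.0448) lost its call in 9 of 11 left-out fits, with an adjusted p of up to 0.223 (without BMDC combination replicate 1). Pvr, a ligand of TIGIT, had a difference of 1.42 ± 0.19 (adjusted p = 0.000225) that was called in every left-out fit.

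Among pattern recognition receptors 4 of 22 had a positive difference and none a negative one, beside 2.14% and 0.902% of all genes. Tlr2, the receptor of bacterial lipopeptides, averaged 599 and 191 CPM in the BMDC combination and Control, against 3.56 and 4.57 CPM in the B cell combination and Control, a difference of 2.01 ± 0.29 (adjusted p = 0.000391). The DNA sensor Aim2 had a difference of 0.86 ± 0.10 (adjusted p = 2.67e-05). Of the enzymes of activated myeloid cells, Ptgs2 (cyclooxygenase-2) averaged 24.6 and 1.22 CPM in the BMDC combination and Control, against 4.82 and 2.04 CPM in the B cell combination and Control, with a difference of 3.07 ± 0.44 (adjusted p = 0.000372). Acod1, which makes itaconate, had 804 and 729 CPM in the BMDC combination, against 101, 126 and 107 CPM in BMDC Control, and at most 1.36 CPM in any B cell library. Its difference of 3.59 ± 0.93 (adjusted p = 0.0416) lost its call in 9 of 11 left-out fits and fell to 2.15 (adjusted p = 0.468) without B cell Control replicate 1.

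**Figure D5:**
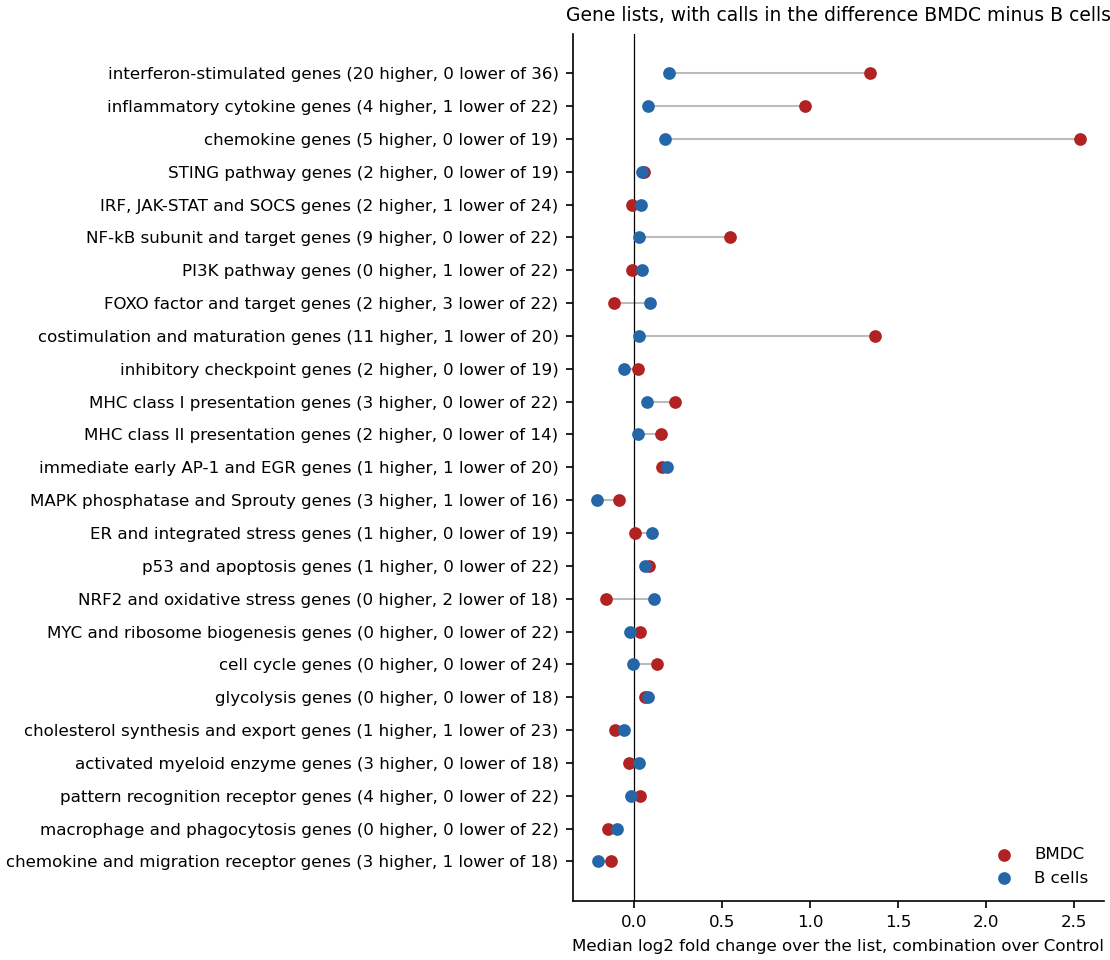
Median log2 fold change of the combination over Control in BMDC (red) and B cells (blue) for 25 gene lists, with the number of genes called higher and lower in the difference of effects beside each name. Chemokine genes have medians of 2.53 in BMDC and 0.17 in B cells, and the MYC, cell cycle, glycolysis and macrophage lists hold no called gene.

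The negative differences included receptors, secreted proteins and phosphatases. Lpar6, a receptor of lysophosphatidic acid, fell in BMDC and rose in B cells. It stood at 22.8 and 23.2 CPM in the BMDC combination, against 71.1, 86.7 and 57.1 CPM in BMDC Control, and at 20, 16.7 and 11.3 CPM in the B cell combination, against 9.22, 8.06 and 7.79 CPM in B cell Control. Neither pair of groups overlapped, and the difference was -2.57 ± 0.30 (log2 ± SE, adjusted p = 3.59e-05).

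Metrnl, which encodes the secreted protein meteorin-like, rose in both cell types and more in B cells. It stood at 89.3 and 97.9 CPM in the BMDC combination, against 36.5, 39.5 and 47.4 CPM in BMDC Control, and at 23.1, 23.3 and 21.1 CPM in the B cell combination, against 1.97, 2.38 and 2.19 CPM in B cell Control. All groups were separated, and the log2 fold change was 1.19 ± 0.11 in BMDC and 3.37 ± 0.13 in B cells, a difference of -2.18 ± 0.17 (adjusted p = 3.38e-07). Dusp5, a nuclear phosphatase that acts on ERK, fell in both cell types and further in BMDC: it averaged 6.89 and 31.7 CPM in the BMDC combination and Control, against 162 and 257 CPM in the B cell combination and Control, a difference of -1.53 ± 0.23 (adjusted p = 0.000685). Cbx2, a Polycomb subunit, fell by 1.65 in BMDC on the log2 scale and changed by 0.52 in B cells, a difference of -2.17 ± 0.33 (adjusted p = 0.000606). These 4 genes were called in every left-out fit.

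In others of the 10 most negative differences, B cell combination replicate 3 stood above its group. Errfi1, an inhibitor of the EGF receptor, had 8.04 and 9.45 CPM in the BMDC combination, against 21.6, 23.8 and 24.4 CPM in BMDC Control, and 12.5, 11.1 and 31.2 CPM in the B cell combination, against 9.78, 8.75 and 9.41 CPM in B cell Control. Enc1, an actin-associated protein, had 25.6, 22.6 and 54.6 CPM in the B cell combination, against 8.61, 8.14 and 8.16 CPM in B cell Control, beside 11.6 and 11.2 CPM in the BMDC combination and 12.1 to 12.5 CPM in BMDC Control. In both genes replicate 3 stood at more than 2 times the other treated B cell libraries. The differences were -2.39 ± 0.53 for Errfi1 (adjusted p = 0.0175) and -2.15 ± 0.46 for Enc1 (adjusted p = 0.0143), and each lost its call without BMDC combination replicate 1 (adjusted p = 0.127 and 0.0799) or replicate 2 (0.076 and 0.0783). Both calls were kept without B cell combination replicate 3. In Zfp703 and Csrnp2 that library was also high, with 25.4, 25.5 and 72.3 CPM and 8.71, 8.31 and 23.6 CPM in the treated B cells. Their differences of -2.17 and -2.30 (adjusted p = 0.0401 and 0.0424) were -1.47 and -1.62 without that library (adjusted p = 0.0873 and 0.0714), and were called in 3 and 2 of the 11 left-out fits.

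Across the whole comparison 10 genes passed the test in opposite directions in the 2 cell types, all with a difference past the threshold. Without BMDC Control replicate 2, Cdc42ep2 (adjusted p = 0.0964) and Icos (0.0625) no longer passed within BMDC. Rasd1, a dexamethasone-induced Ras protein, and Spry2, an inhibitor of receptor tyrosine kinase signalling, rose in BMDC and fell in B cells. Rasd1 had 5.77 and 7.28 CPM in the BMDC combination, against 1.5, 1.17 and 1.11 CPM in BMDC Control, and 22.4, 20.9 and 31.7 CPM in the B cell combination, against 36.4, 57.2 and 49.6 CPM in B cell Control. Its groups were separated in each cell type, and the difference was 3.31 ± 0.35 (log2 ± SE, adjusted p = 1.11e-05). Spry2 had a difference of 1.45 ± 0.21 (adjusted p = 0.000489).

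The interleukin-1 genes were in the same class. Il1a had 74.6 and 71.9 CPM in the BMDC combination, against 12.2, 16.2 and 16.2 CPM in BMDC Control, and 0.444, 0.289 and 0.0876 CPM in the B cell combination, against 1.09, 0.968 and 1.09 CPM in B cell Control. Il1b had 66.5 and 69.4 CPM in the BMDC combination, against 33.2, 49.1 and 36.9 CPM in BMDC Control, and 9.87, 8.02 and 6.53 CPM in the B cell combination, against 20.8, 13.0 and 17.6 CPM in B cell Control. No groups overlapped in either gene, and the differences were 4.22 ± 0.42 for Il1a (adjusted p = 5.18e-06) and 1.85 ± 0.32 for Il1b (adjusted p = 0.0025). The rise of Il1b within BMDC lay close to the threshold (adjusted p = 0.049, and 0.0277 without BMDC Control replicate 2). The fifth gene of this direction was Icos, a T cell costimulatory receptor. Those that fell in BMDC and rose in B cells were Lpar6, Kctd7, Klf9, Stac2 and Cdc42ep2. Klf9, a Krüppel-like factor, averaged 49.5 ± 0.439 CPM (SD, n = 2) in the BMDC combination and 66.6 ± 5.66 CPM (SD, n = 3) in BMDC Control, against 62.2 ± 3.98 and 39.4 ± 1.02 CPM in the B cell combination and Control, a difference of -1.09 ± 0.11 (adjusted p = 7.7e-06).

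Some of the largest positive differences came from transcripts of other cell types that were lower in the treated B cell libraries. Ngp, S100a8 and S100a9 are granule and calcium-binding proteins of neutrophils, Thy1 and Cd6 are T cell surface proteins, and Chil3 is a macrophage and neutrophil lectin. S100a9 had 62.4 and 102 CPM in the BMDC combination, against 58.6, 123 and 37.1 CPM in BMDC Control, and 0.423, 0.133 and 0.11 CPM in the B cell combination, against 14.8, 2.69 and 0.985 CPM in B cell Control. The BMDC groups overlapped, and among the B cell libraries Control replicate 1 was the highest. S100a9 changed by 0.17 ± 0.58 in BMDC and fell by 4.78 on the log2 scale in B cells, so its difference of 4.95 ± 1.19 (adjusted p = 0.0279) came from the B cells. It lost its call in 7 of 11 left-out fits, with an adjusted p of 0.0669 without B cell Control replicate 1 and up to 0.107 (without BMDC combination replicate 2). Thy1 (4.35, adjusted p = 0.011) and Chil3 (5.34, adjusted p = 0.00546) were called in every left-out fit and not by limma-voom (adjusted p = 0.112 for Thy1 and 0.0634 for Chil3). Chil3 had 2 counts over the B cell combination, against 95 over B cell Control, and its difference ranged from 4.57 to 7.96 over the left-out fits, so its size is poorly fixed.

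Part of the marker lists fell with these genes. The 12 neutrophil markers summed to 0.504 to 0.952 CPM in the B cell combination and 2.10 to 32.5 CPM in B cell Control, with Elane at 0 in both groups, and 4 of the 12 fell in B cells. The 12 T cell markers summed to 51.4 to 58.8 CPM in the B cell combination, with Cd3e at 0, and 63.0 to 81.2 CPM in B cell Control, and 8 of the 12 fell. Among all genes tested, 0.755% fell in B cells. The NK cell markers summed to 5.98 to 9.84 CPM in the B cell combination and 13.3 to 18.1 CPM in B cell Control, and the mast cell and basophil markers to 2.21 to 4.997 CPM and 5.28 to 7.46 CPM in the same groups, each without overlap. Of all single genes, 17.3% had no overlap between the B cell groups. The monocyte and macrophage markers overlapped, at 364 to 407.9 CPM in the B cell combination and 362.3 to 397.6 CPM in B cell Control. So did the red cell precursor markers, at 17.85 to 21.94 CPM and 21.29 to 43.18 CPM in the same groups, and 2 of these 9 fell. In BMDC the neutrophil markers summed to 751 to 852 CPM in the combination and 766 to 1040 CPM in Control, and none of them passed the test. The part of these markers' cell types in the falls of Il1a, Il1b, Icos and Ccr2 in B cells was not tested. The 12 B cell markers held no gene called in the difference.

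Neither drug target passed the test in either cell type. Pik3cg, the target of IPI-549, had 184 and 170.2 CPM in the BMDC combination, against 239, 191 and 218 CPM in BMDC Control, and 71.9, 72.5 and 61.2 CPM in the B cell combination, against 72.8, 71.3 and 77.1 CPM in B cell Control. Its difference was -0.18 (95% interval -0.50 to 0.13, adjusted p = 0.659). Sting1, the target of MSA2, stood at 103 and 103 CPM in the BMDC combination and 102 to 115 CPM in BMDC Control, and at 34.8 to 41.1 CPM in the B cell combination and 33.8 to 37.6 CPM in B cell Control, and its difference was -0.20 (-0.45 to 0.06, adjusted p = 0.508). Of 22 PI3K pathway genes 1 was called, beside 3.04% of all genes, a share at which such a list would hold few calls or none. It was Pik3cd, at -0.42 (adjusted p = 0.0448). Its call was lost in 10 of 11 left-out fits, with an adjusted p of 0.13 without B cell combination replicate 3. Of 22 FOXO factors and targets, which PI3K and AKT signalling restrains, 2 had a positive and 3 a negative difference, and 1 and 2 without BMDC Control replicate 2. Over all genes 2.14% were positive and 0.902% negative. Foxo3 was lower by this measure (-0.56, adjusted p = 0.0162), without a call when BMDC combination replicate 1 or 2 was left out (adjusted p = 0.0819 and 0.0799).

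Responses that the cell types shared included stress and feedback genes. Ppp1r15a, the GADD34 subunit that ends the integrated stress response, rose in both, with 1257 and 1182 CPM in the BMDC combination, against 34.8, 55.5 and 35.7 CPM in BMDC Control, and 2048, 1953 and 3174 CPM in the B cell combination, against 244, 249 and 261 CPM in B cell Control. The groups were far apart in each cell type and the rise was larger in BMDC, with a difference of 1.61 ± 0.32 (adjusted p = 0.00734). Bbc3 and Pmaip1, which encode the pro-apoptotic proteins PUMA and NOXA and were chosen after their values were seen, rose by 2.20 and 2.55 in BMDC and by 2.16 and 2.64 in B cells (log2), with differences of 0.04 (95% interval -0.29 to 0.36) and -0.09 (-0.51 to 0.33). Among genes that fell in both, the oxidative stress gene Osgin1 fell by 2.43 in BMDC and by 2.07 in B cells on the log2 scale, and Socs3, an inhibitor of JAK-STAT signalling, by 0.90 and 1.49. Their differences, -0.36 for Osgin1 (95% interval -1.11 to 0.38) and 0.60 for Socs3 (-0.07 to 1.27), missed the threshold (adjusted p = 0.721 and 0.427).

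Several lists held no gene called in the difference, beside 3.04% called over all genes, a share at which lists of this size would hold few calls or none. None of the 22 MYC and ribosome biogenesis genes, 24 cell cycle genes, 18 glycolysis genes or 22 macrophage and phagocytosis genes was called in the difference. Their median differences were 0.09, 0.14, -0.04 and 0.04 on the log2 scale, beside 0.01 over all genes tested. Immediate early AP-1 and EGR genes had 1 positive and 1 negative call of 20, Maff at 1.64 ± 0.30 (adjusted p = 0.00415) and Fosl2 at -0.99 ± 0.19 (adjusted p = 0.0054). Fosl2 lost its call without BMDC combination replicate 1 (-0.95, adjusted p = 0.0547). Of the 16 MAPK phosphatase and Sprouty genes, 3 were positive (Dusp14, Spry1 and Spry2) and 1 negative (Dusp5).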

How the data were processed

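RNA was sequenced from 17 mouse libraries, and the authors deposited expected counts per gene in 1 table for each cell type. The submitters' processing notes list STAR 2.7.8a, RSEM 1.3.3, cutadapt 4.8, MultiQC 1.20 and FastQC 0.11.8, and the build GRCm38. RSEM divides reads that match several genes, so near-identical genes are uncertain. Strand and annotation release are not given in the sources used here, and overlapping genes on opposite strands are uncertain.

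The tables were joined by gene identifier and the counts rounded to whole numbers. One fit of the 6 groups in edgeR 4.0.16 (R 4.3.3) used trimmed mean of M-values (TMM) factors, filterByExpr and the quasi-likelihood F test, with Benjamini-Hochberg adjustment over the 17740 genes tested and calls under 0.05. The script was tested on simulated data. Standard errors derive from the F statistic. CPM use TMM-scaled totals unless stated. Bounds use a floor of 3 counts over a group. Gene positions come from GENCODE M21 (GRCm38), which held 99.4% of 55491 identifiers, and promoters from RefSeq.

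The comparison, the gene lists and the named genes were chosen with earlier results of these data known. Named were 11 key genes, the 10 largest differences in each direction among genes measurable in both cell types with a group mean of at least 5 CPM and an established symbol, the 4 highest per direction measurable in 1 cell type, up to 6 per direction called in both cell types or in opposite directions, and up to 4 called genes per list. Eif2ak2, Icos, Icosl, Osm, Ccl4, Nfkbia, Marcksl1, Ifna9, Ifna14, Bbc3 and Pmaip1 lie outside this rule and were picked with their values in view. The alternatives tried were upper quartile and RLE factors, TMM within each cell type, 3 other filters, DESeq2 1.42.0, limma-voom (limma 3.58.1), glmTreat at 1.5-fold, the 4 compared groups alone, a replicate block, and each library left out in turn.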

Additional observations from a re-analysis of the deposited data

Results flagged for a closer look

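The combination effect differed between BMDC and B cells for 539 genes by edgeR's quasi-likelihood test of the difference itself. Among the named genes, 9 were called in opposite directions in the 2 cell types. Rising in BMDC and falling in B cells, the differences on the log2 scale were 4.22 for Il1a, 3.31 for Rasd1, 1.85 for Il1b and 1.45 for Spry2. Falling in BMDC and rising in B cells, they were -2.57 for Lpar6, -2.52 for Cdc42ep2, -2.19 for Kctd7, -1.09 for Klf9 and -0.69 for Stac2. Cdc42ep2 was measurable in BMDC alone, with group means of 0.828 CPM in the B cell combination and 0.259 CPM in B cell Control. It no longer passed within BMDC without BMDC Control replicate 2 (adjusted p = 0.0964). All 9 differences were called whichever library was left out. That does not cover the calls within each cell type, which define the class. The rise of Il1b within BMDC had an adjusted p of 0.049.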

How the results depend on the processing

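The count of 539 genes in the difference stayed within 1.5 times under RLE, upper quartile and within-cell-type TMM factors, 2 other filters, limma-voom and the replicate block, and the share of positive calls was 64.0 to 72.8% under other factors, against 70.3%. It was 60.1% in DESeq2 and 56.0% in the fit of the 4 compared groups alone. With no filter the difference held 818 genes (291 negative), and B cells 687 (293 rising and 394 falling). DESeq2 called 888 in the difference (354 negative) and 491 in B cells (267 falling). Against a minimum change of 1.5-fold, glmTreat called 153 (124 positive, 29 negative), 373 in BMDC (306 rising, 67 falling) and 86 in B cells (65 rising, 21 falling). Fitting the 4 compared groups alone gave 748 genes, 329 of them negative, and 781 falling in BMDC. The cause of these shifts was not tested.

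With 1 library left out, the difference held 246 to 509 genes (192 to 346 positive, 54 to 171 negative), BMDC 664 to 1450 (458 to 920 rising, 206 to 530 falling) and B cells 183 to 282 (112 to 159 rising, 49 to 130 falling). Both BMDC combination libraries moved the counts by over 1.5 times. So did BMDC Control replicate 1 (105 negative), B cell Control replicate 1 (88 falling in B cells), B cell Control replicate 2 (99 negative, 77 falling in B cells) and B cell combination replicates 1 (82 falling in B cells) and 3 (106 negative, 49 falling in B cells). A fit without a BMDC combination library leaves 1 in that group, which is then assumed to vary like the others. Of 89 named genes called in the difference, 52 were called in every left-out fit and 43 in every other alternative.

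Over genes, libraries with the same title suffix showed little shared deviation (correlations of deviations of -0.035 to 0.0799), so the suffix is not taken as a pairing. Some list sums were still highest in replicate 3 of every B cell group. The glycolysis sum there was 3187 CPM in Control, 3452 CPM in the combination and 3865 CPM with MSA2 alone. Other lists, such as the PI3K pathway, did not share this order. A shift common to replicate 3 was not tested. A fit with the suffix as a replicate block called 560 genes in the difference (392 positive, 168 negative), 1314 in BMDC and 360 in B cells. The difference of Tnf passed under it (adjusted p = 0.0484).

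Depth limits genes with 0 counts in a Control group, such as Ifnb1 and the Ifna genes in B cells, whose fitted fold cannot be read as a size. The BMDC combination rests on 2 libraries.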
